A study of Mus musculus with 12 samples.

Results

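The 35 genes described here are targets of the hypoxia response and enzymes and transporters of glycolysis, listed by name and looked up among the 41128 genes of the deposited count and RPKM tables. The list was chosen with earlier results of these data known. Shares of called members set beside shares of all genes are therefore descriptions and not tests of the list. All 35 were present, and 34 were among the 15347 genes tested. Car9 was not, because its counts were too low. RNA came from mouse haemogenic endothelium, the endothelial cell from which blood cells emerge, grown from embryonic stem cells of the iSox7 line, a derivative of Ainv18 in which doxycycline (Dox) induces the transcription factor SOX7. Embryoid bodies were sorted for FLK1+ cells at day 3.5, and these spent 48 h in liquid blast culture, whose medium holds VEGF, IL6 and conditioned medium. They then received no Dox or 1 µg/ml Dox, and were harvested after 6, 12 or 24 h, which gave 6 groups of 2 libraries. All groups carry the inducible transgene, the untreated ones included. No group of cells without the transgene and with Dox is among these samples, so an effect of Dox itself and one of induced SOX7 cannot be told apart. The labels give no oxygen level.

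Cells sense oxygen through prolyl hydroxylases, encoded by the Egln genes, which mark the alpha subunits of hypoxia-inducible factors (HIFs) for destruction by the VHL ubiquitin ligase. When oxygen is scarce the alpha subunit, HIF1A or EPAS1, persists, pairs with ARNT and binds short DNA elements near genes for glucose uptake, glycolysis, lactate export, angiogenesis and control of mitochondria. Endothelial cells draw much of their ATP from glycolysis even in oxygen, and several of these genes are also driven by growth signals and by other transcription factors.

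The core of the HIF binding element reads ACGTG or GCGTG. The rule for the members used gene names and not this sequence. Because known targets of the hypoxia response were listed, a high share of members with the core may be built into the list. Shown are all 10 members that were called with Dox at any hour and have a promoter in the table, with or without the core, and Bnip3, which had wide gaps within pairs, and Ddit4, which had the lowest adjusted p between hours. RefSeq promoters of build GRCm38.p6 were matched by symbol for 31 of 35 members, all but Slc2a3, Ero1l, Ndrg1 and Bhlhe40. Each sequence below is 60 bases from the 250 bases before the gene start, read 5′ to 3′ on the strand of the gene. Where a promoter holds the core at several places 1 window is given, and for Mxi1, which holds none, the bases next to the start. Capitals mark the core on either strand (CACGT or CACGC where it lies on the other one).
Ak4, chr4:101419225-101419284, plus strand: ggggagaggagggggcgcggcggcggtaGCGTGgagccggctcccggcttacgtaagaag
Bnip3, chr7:138909592-138909651, minus strand: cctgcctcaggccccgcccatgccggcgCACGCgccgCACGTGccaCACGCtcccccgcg
Slc16a3, chr11:120949007-120949066, plus strand: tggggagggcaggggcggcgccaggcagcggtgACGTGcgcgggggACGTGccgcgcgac
P4ha2, chr11:54100818-54100877, plus strand: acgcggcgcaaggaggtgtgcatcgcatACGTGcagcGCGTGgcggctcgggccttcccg
Pfkl, chr10:78009875-78009934, minus strand: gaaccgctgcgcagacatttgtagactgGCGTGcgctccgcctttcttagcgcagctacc
Pdk1, chr2:71873118-71873177, plus strand: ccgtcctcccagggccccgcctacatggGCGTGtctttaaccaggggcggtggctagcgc
Egln1, chr8:124949291-124949350, minus strand: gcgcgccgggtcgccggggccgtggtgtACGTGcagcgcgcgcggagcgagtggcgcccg
Kdm3a, chr6:71632918-71632977, minus strand: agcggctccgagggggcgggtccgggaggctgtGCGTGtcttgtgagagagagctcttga
Slc2a1, chr4:119108681-119108740, plus strand: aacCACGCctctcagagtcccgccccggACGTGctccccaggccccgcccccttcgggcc
Pfkfb4, chr9:108991757-108991816, plus strand: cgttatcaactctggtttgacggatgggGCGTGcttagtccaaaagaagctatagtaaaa
Ddit4, chr10:59951926-59951985, minus strand: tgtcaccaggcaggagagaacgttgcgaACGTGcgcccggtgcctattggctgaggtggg
Mxi1, chr19:53310446-53310505, plus strand: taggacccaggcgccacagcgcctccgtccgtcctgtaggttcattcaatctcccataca

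Slc16a3, which encodes a lactate exporter, holds ACGTG at 2 places close to the gene start, and P4ha2 holds ACGTG and GCGTG side by side. The RefSeq start lies 587 bases from that of the deposited gene for Slc16a3 and 829 bases for P4ha2. In Bnip3 the ACGTG lies within CACGTG, an E-box that reads the same on both strands and so counts on both. At least 1 core was found before the start of 26 of 31 members (83.9%), against 38.6% of the 32851 promoters in the table. For ACGTG alone the values were 15 of 31 members (48.4%) and 16.6% of all promoters. Members' promoters were also richer in G and C, with a median GC content of 60.4% against 52.4%. Among promoters with a GC content of at least 55%, the core was found in 24 of 27 members (88.9%) and in 58.3% of all. No core lay in the windows of Hk1, Gpi1, Aldoa, Tpi1 and Mxi1, which says only that these letters are not in the 250 bases searched. These matches are a description of the sequence and not of binding.

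Total counts ran from 13485804 to 35250074 per library. Each group held 1 shallow library of at most 15429846 counts and 1 deep library of at least 27516106. Whether replicates came from separate cultures is not stated in the labels, and the spread behind each p-value may therefore be a technical one. Sox7, the induced gene, read 77.9 and 81.7 CPM in untreated and 326 and 314 CPM in Dox libraries at 6 h, 55.6 and 68.8 against 379 and 376 CPM at 12 h, and 52.5 and 52.1 against 337 and 331 CPM at 24 h. Here and below CPM is the count scaled by the effective library size, values of a group are those of replicate 1 and then replicate 2, and a fold change is on the log2 scale. All 15 endothelial markers on the list were tested, with a summed level of 2407 to 3478 CPM per library. All 10 markers of mural and mesenchymal cells were also tested and present, at 7273 to 10315 CPM. In such bulk samples fewer cells of a type and less RNA per cell cannot be told apart.

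Single libraries stood apart in these genes, and the counts of called members and their called Dox effects are given below with and without single libraries. On the scale of log2(CPM + 0.5), the median deviation of the 34 tested members from each gene's own mean was -0.158 in Dox 6 h replicate 2, -0.0975 in untreated 12 h replicate 2 and -0.174 in Dox 24 h replicate 2. It was highest in Dox 12 h replicate 1, at 0.179, and in Dox 12 h replicate 2, at 0.0902. The median over all tested genes ran from -0.00779 to 0.0059. In the untreated 12 h group 30 of 34 members were higher in replicate 1, against 49.2% of all tested genes. The same count was 28 of 34 in the Dox 6 h group (49.2% of all genes), 28 in Dox 12 h (52.0%), 30 in Dox 24 h (49.9%), 21 in untreated 24 h (48.0%) and 7 in untreated 6 h (48.6%).

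**Figure D1:**
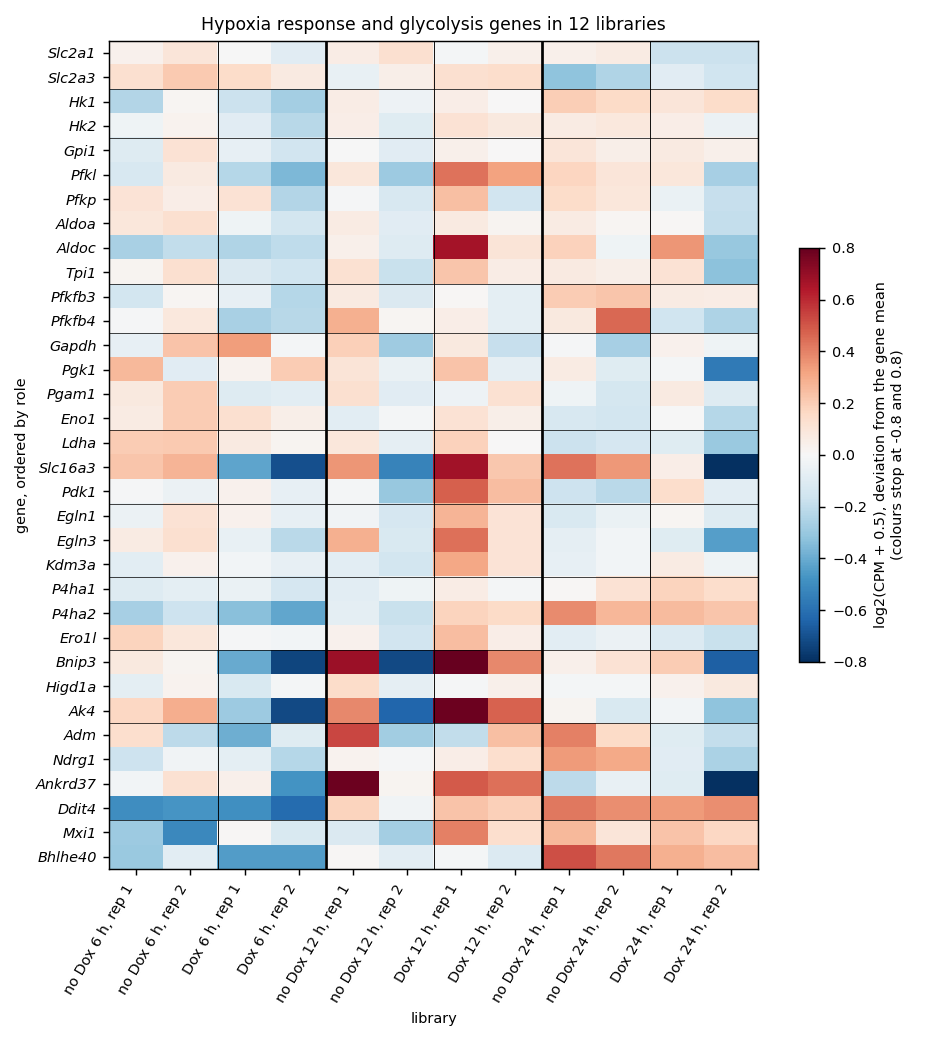
Deviation of log2(CPM + 0.5) from each gene's mean (colour, stopping at -0.8 and 0.8) for the 34 tested members (vertical axis, ordered by role) in the 12 libraries (horizontal axis). Most genes are red in both Dox 12 h libraries, while Bnip3, Slc16a3 and Ak4 differ within the untreated 12 h pair.

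Among members with at least 5 CPM on average, Bnip3, Ak4 and Slc16a3 showed the widest gaps within a pair. Bnip3, singled out after its values were seen, read 31.1 and 11.4 CPM in the untreated 12 h libraries, 38.5 and 25.2 CPM in the Dox 12 h libraries and 22.1 and 12.0 CPM in the Dox 24 h libraries. Of the 11115 genes with at least 5 CPM on average, 48 (0.432%) were at least 1.5-fold apart in the untreated 12 h pair, and Ak4, Bnip3 and Slc16a3 were 3 of them. In the Dox 12 h pair there were 37 such genes (0.333%), Bnip3 among them, and in the Dox 24 h pair 74 (0.666%), with Bnip3 and Slc16a3. No member with at least 5 CPM on average was that far apart in the other groups. The library with higher member levels was the shallow one in the untreated 12 h and Dox 6 h pairs and the deep one in the Dox 12 h and Dox 24 h pairs. The summed level of 10 erythroid markers, all detected, was 1640 CPM in untreated 12 h replicate 1 against 1009 CPM in replicate 2, and 1287 against 1057 CPM in the Dox 24 h pair, 1731 against 1603 CPM in the Dox 12 h pair and 969 against 1044 CPM in the Dox 6 h pair. In untreated cells it was 1199 against 999 CPM at 6 h, where most members were higher in replicate 2, and 1841 against 1659 CPM at 24 h. The part of depth and of these markers in the gaps was not tested.

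By level per transcript length, glucose uptake led. Slc2a1, the main glucose transporter of endothelium, had a mean of 979 RPKM over the 12 libraries and ranked 20 among all genes of the table. Ldha, which turns pyruvate into lactate, followed at 182 RPKM, then the aldolase gene Aldoa at 173 RPKM and Slc2a3, a second glucose transporter, at 132 RPKM. Gapdh, an abundant glycolytic enzyme in most cells, stood at only 2.03 RPKM and at 5.66 CPM, and Pgk1 at 8.41 RPKM. Of the 75-base windows of the Gapdh transcript in GENCODE M21, 80.3% also occur in transcripts of 121 other annotated genes, and the 110 of those in the count table summed to 59.0 CPM. That sum holds all reads of each gene, with 18.2 CPM from Peli2, which shares only 21 windows. It is therefore not the level of Gapdh reads counted elsewhere. The percentages of shared windows were 67.5% for Pgk1, 65.4% for Eno1, 46.2% for Bnip3, 40.6% for Pgam1 and 34.3% for Higd1a. For 16 members no window was shared. A read of this length from a shared window cannot be given to 1 gene by its sequence, and how such reads were counted is not given in the sources used here, so the levels of Gapdh, Pgk1, Eno1, Bnip3, Pgam1 and Higd1a are uncertain. Pfkp (16.6%) and Gpi1 (14.8%) shared fewer windows, but with genes of higher level, Pitrm1 at 239 CPM and Gm1840 at 195 CPM. Their levels are uncertain too.

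**Figure D2:**
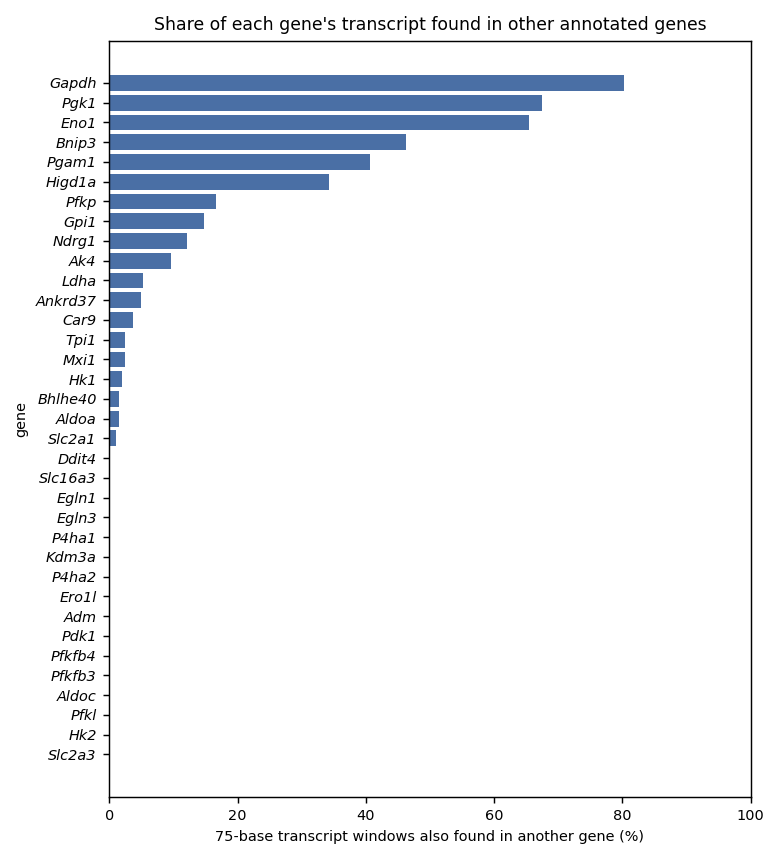
Share of 75-base windows of each member's longest coding transcript (horizontal axis, percent) that also occur on either strand in a transcript of another annotated gene, for all 35 members (vertical axis). Gapdh, Pgk1 and Eno1 exceed 60%, while the genes called at 12 h lie at 9.61% (Ak4) or below.

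After 6 h of Dox, 1 of the 34 tested members was called at an adjusted p under 0.05 (2.94%), against 1.54% of all 15347 genes (0.821% higher and 0.717% lower): Slc16a3, which fell. After 12 h, 7 members were called (20.6%), all higher with Dox, against 6.76% of all genes called, 3.26% higher and 3.51% lower. They were Pdk1, Mxi1, Kdm3a, Pfkl, P4ha2, Ak4 and Egln1. After 24 h, 5 members were called (14.7% against 11.0% of all genes, 4.50% higher and 6.52% lower): Ndrg1, Slc2a1, Pfkfb4 and Slc16a3 were lower and Slc2a3 was higher. The median fold change of the 34 members was -0.13 at 6 h, 0.13 at 12 h and -0.07 at 24 h, and that of all tested genes was 0.01, -0.01 and -0.01. Fitted values lay above 0 for 5, 28 and 11 of 34 members at the 3 hours. Before adjustment, 16, 15 and 10 members had a p under 0.05. For neither kind of count was the share of all genes taken, and members shifted together in single libraries. Neither count is therefore read as a result about the members.

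The 12 h count rested on single libraries. It was 1 without Dox 12 h replicate 1, 3 without untreated 12 h replicate 2, 11 without Dox 12 h replicate 2 and 13 without untreated 12 h replicate 1. Pdk1 was called in all 11 alternative fits of that comparison. Other tools called fewer members: at 12 h DESeq2 called 5 of the 7, all but Pfkl and Ak4, and limma-trend on RPKM 2, Pdk1 and Kdm3a. At 24 h DESeq2 called 4 of the 5, all but Slc16a3, and limma-trend only Ndrg1, and at 6 h neither called any. The 24 h count was 8 without Dox 24 h replicate 1, 4 without Dox 24 h replicate 2, 3 without untreated 24 h replicate 1 and 2 without untreated 24 h replicate 2. At 6 h no member was called without untreated replicate 2 or without Dox replicate 2, 2 were called without Dox replicate 1, and 1 other than Slc16a3 without untreated replicate 1.

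**Figure D3:**
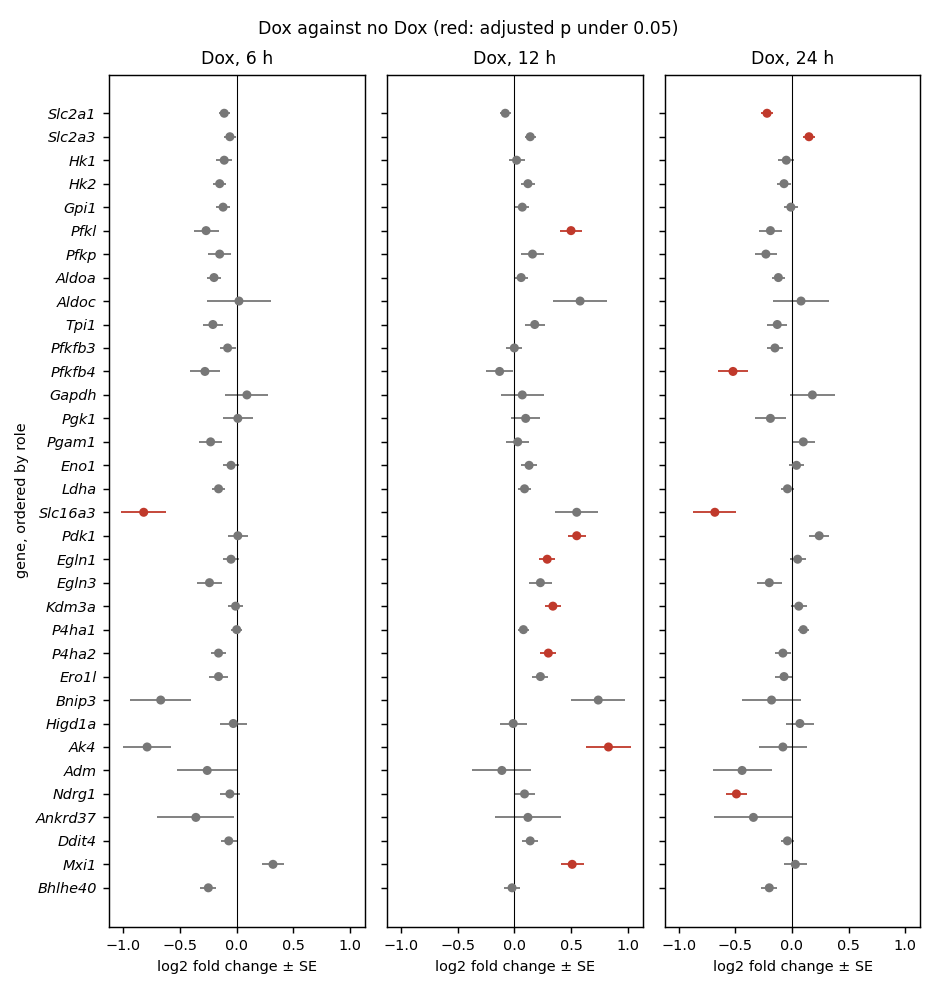
Fitted log2 fold change of Dox against no Dox with its SE (horizontal axis) for the 34 tested members (vertical axis), in 1 panel per hour; red marks an adjusted p under 0.05 in edgeR's quasi-likelihood test. Points lie mostly left of 0 at 6 h and right of 0 at 12 h, and the widest errors belong to low or split genes such as Ankrd37 and Bnip3.

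Of 4 genes for glucose uptake and phosphorylation, both transporters were called with Dox, at 24 h and in opposite directions. Slc2a1 read 3115 and 3242 CPM in untreated and 3035 and 2847 CPM in Dox libraries at 6 h, 3169 and 3314 against 2999 and 3117 CPM at 12 h, and 3119.6 and 3174 against 2694 and 2694 CPM at 24 h. Both Dox libraries lay below both untreated libraries at each hour, and the difference passed the test only at 24 h. There the fold change was -0.22 ± 0.05 (SE, adjusted p = 0.0011), and it stayed called without each library in turn. Slc2a3 read 1137 and 1204 CPM in untreated and 1149 and 1091 CPM in Dox libraries at 6 h, 999 and 1072 against 1137 and 1147 CPM at 12 h, and 833 and 879 against 976 and 929 CPM at 24 h. It lay higher with Dox in both 24 h libraries, with a fold change of 0.15 ± 0.05 (SE, adjusted p = 0.046), a call lost without any 1 of the 4 libraries of that hour (largest adjusted p = 0.43). The difference between the opposite Dox effects on Slc2a1 and Slc2a3 at 24 h was not tested. The hexokinase genes, whose products trap glucose in the cell, were not called with Dox at any hour: Hk1 had fold changes of -0.11, 0.02 and -0.05 at 6, 12 and 24 h, and Hk2 of -0.15, 0.12 and -0.07.

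Among the 6 enzymes from glucose 6-phosphate to triose phosphate, only Pfkl was called at 12 h, while all 6 fitted values there lay above 0. Pfkl (ENSMUSG00000020277, chromosome 10, 77986947 to 78010083, minus strand) encodes the liver-type subunit of phosphofructokinase, the committed step of glycolysis. Pfkl read 42.4 and 48.8 CPM in untreated and 39.5 and 36.1 CPM in Dox libraries at 6 h, 49.3 and 37.7 against 62.7 and 57.9 CPM at 12 h, and 52.3 and 49.6 against 49.5 and 38.4 CPM at 24 h. With Dox both libraries were lower at 6 h, higher at 12 h and, narrowly, lower at 24 h, with no overlap at any hour. The fold change at 12 h was 0.50 ± 0.10 (SE, adjusted p = 0.0019), and those at 6 and 24 h, -0.27 ± 0.11 and -0.19 ± 0.10, were not called. Leaving out each 12 h library in turn gave 0.30 to 0.69, and the call was lost without untreated replicate 2 and without Dox replicate 1. It was also lost with DESeq2 (adjusted p = 0.055) and limma-trend (adjusted p = 0.12). Gpi1, Pfkp, Aldoa, Aldoc and Tpi1 were not called at any hour, with fitted values of 0.07, 0.16, 0.06, 0.58 and 0.18 at 12 h.

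Pfkfb3 and Pfkfb4 make fructose 2,6-bisphosphate, the activator of phosphofructokinase, and Pfkfb4 was lower with Dox at 24 h. Pfkfb4 read 14.3 and 15.3 CPM in untreated and 12.0 and 12.3 CPM in Dox libraries at 6 h, 17.7 and 14.6 against 15.0 and 13.6 CPM at 12 h, and 15.2 and 20.0 against 12.9 and 12.1 CPM at 24 h. The 24 h Dox libraries lay close together below both untreated ones, which were themselves apart. The fold change was -0.52 ± 0.13 (SE, adjusted p = 0.0046), and without untreated replicate 2 it lost the call (adjusted p = 0.37), with a range of -0.68 to -0.27 over the 4 fits that leave out 1 library. Pfkfb3 was not called, at -0.15. The 4 genes from glyceraldehyde 3-phosphate on, Gapdh, Pgk1, Pgam1 and Eno1, were not called with Dox at any hour by edgeR, DESeq2 or limma, and their fitted values ran from -0.23 to 0.18. Before adjustment 1 of 4 had a p under 0.05, at 6 h. They are also the members with the most shared windows, together with Bnip3 and Higd1a. Eno1b, an intronless copy that shares most of the Eno1 windows, averaged 86.8 CPM against 70.7 CPM for Eno1 and was not called with Dox either.

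Of the 3 genes at the exit of glycolysis, Slc16a3 fell at 6 and 24 h and Pdk1 rose at 12 h. Slc16a3 (ENSMUSG00000025161, chromosome 11, 120948480 to 120960868, plus strand) encodes MCT4, which carries lactate out of the cell. Slc16a3 read 83.7 and 86.7 CPM in untreated and 53.5 and 43.9 CPM in Dox libraries at 6 h, 92.0 and 49.4 against 114 and 83.3 CPM at 12 h, and 97.3 and 91.4 against 74.6 and 38.0 CPM at 24 h. The Dox libraries lay below the untreated ones at 6 and at 24 h, while at 12 h the groups overlapped and both pairs were split. Fold changes were -0.82 ± 0.20 (SE, adjusted p = 0.023) at 6 h, 0.55 ± 0.19 (SE, adjusted p = 0.077) at 12 h and -0.68 ± 0.19 (SE, adjusted p = 0.015) at 24 h. Leaving out each library in turn gave -0.97 to -0.67 at 6 h and -1.30 to -0.33 at 24 h. The 6 h call held only without Dox replicate 1 among these 4 fits, and the 24 h call likewise. Neither call held with DESeq2 (adjusted p = 0.61 and 0.34) or limma-trend (adjusted p = 0.44 and 0.17).

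Pdk1 (ENSMUSG00000006494, chromosome 2, 71873224 to 71903858, plus strand) encodes a kinase that shuts off pyruvate dehydrogenase and so keeps pyruvate from mitochondria. Pdk1 read 71.4 and 69.7 CPM in untreated and 73.7 and 68.7 CPM in Dox libraries at 6 h, 70.9 and 58.2 against 100.5 and 85.3 CPM at 12 h, and 64.1 and 61.7 against 79.2 and 67.6 CPM at 24 h. Both Dox libraries were higher at 12 h and, by less, at 24 h, and the groups overlapped at 6 h. The fold change was 0.55 ± 0.08 (SE, adjusted p = 4.7e-05) at 12 h, with 0.40 to 0.69 when each library was left out, and 0.24 ± 0.09 (SE, adjusted p = 0.073) at 24 h. Ldha read 679 and 679.7 CPM in untreated and 618 and 597 CPM in Dox libraries at 6 h, 626 and 559 against 668 and 590.4 CPM at 12 h, and 522 and 536 against 549 and 478 CPM at 24 h. Ldha was below the untreated libraries in both Dox libraries at 6 h and overlapped with them later, and none of its Dox effects was called (-0.16, 0.09 and -0.04).

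**Figure D4:**
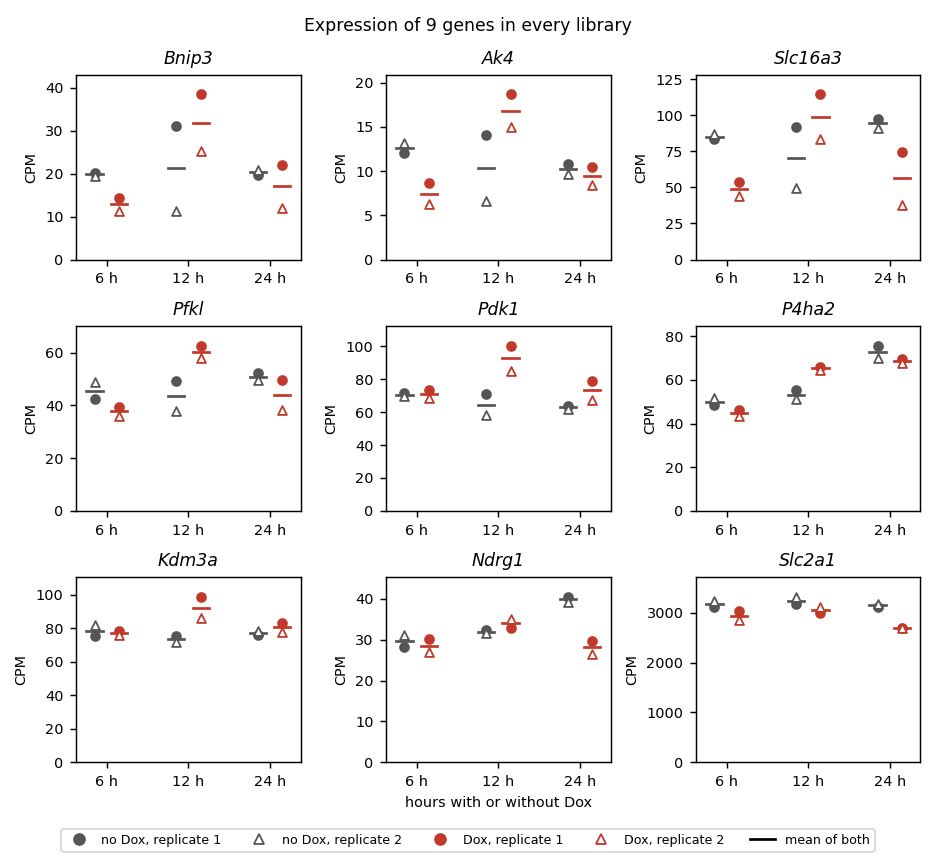
CPM (vertical axes, from 0) of 9 members at 6, 12 and 24 h (horizontal axes) without Dox (grey) and with Dox (red); filled circles are replicate 1, open triangles replicate 2 and bars the mean of both. In the 3 top panels the untreated 12 h replicates are far apart, with Bnip3 at 31.1 and 11.4 CPM, whereas Ndrg1 and Slc2a1 show close pairs and lower Dox values at 24 h.

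Of the oxygen-sensing and demethylase genes, Egln1 and Kdm3a were higher with Dox at 12 h. Egln1 (ENSMUSG00000031987, chromosome 8, 124908596 to 124949254, minus strand) encodes PHD2, the main prolyl hydroxylase that acts on HIF alpha subunits. Egln1 read 89.1 and 99.8 CPM in untreated and 94.2 and 87.7 CPM in Dox libraries at 6 h, 90.2 and 83.5 against 111 and 99.1 CPM at 12 h, and 84.6 and 88.6 against 93.1 and 85.6 CPM at 24 h. Only at 12 h did the Dox libraries both lie above the untreated ones, with a fold change of 0.29 ± 0.07 (SE, adjusted p = 0.0087). Kdm3a (ENSMUSG00000053470, chromosome 6, 71588974 to 71632905, minus strand) encodes a histone H3 lysine 9 demethylase. Kdm3a read 75.0 and 81.7 CPM in untreated and 78.5 and 76.2 CPM in Dox libraries at 6 h, 75.1 and 71.7 against 98.6 and 86.0 CPM at 12 h, and 76.1 and 78.4 against 83.3 and 77.5 CPM at 24 h. It too was apart only at 12 h, by 0.34 ± 0.07 (SE, adjusted p = 0.0015). The Egln1 call was lost without untreated 12 h replicate 2 and without Dox 12 h replicate 1 (range 0.21 to 0.36), and the Kdm3a call without the latter (range 0.24 to 0.43). Egln3 read 71.3 and 74.4 CPM in untreated and 65.3 and 58.7 CPM in Dox libraries at 6 h, 83.0 and 62.7 against 92.9 and 73.7 CPM at 12 h, and 64.9 and 67.1 against 63.8 and 50.0 CPM at 24 h. Egln3, a further HIF hydroxylase gene, had groups that did not overlap at 6 and 24 h but was not called at any hour, with -0.24, 0.23 and -0.20.

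Of 3 genes for protein maturation in the endoplasmic reticulum, P4ha2 rose with Dox at 12 h. P4ha2 (ENSMUSG00000018906, chromosome 11, 54100095 to 54131665, plus strand) encodes a catalytic subunit of collagen prolyl 4-hydroxylase. P4ha2 read 48.4 and 51.8 CPM in untreated and 46.0 and 43.5 CPM in Dox libraries at 6 h, 55.2 and 51.4 against 65.8 and 64.7 CPM at 12 h, and 75.7 and 69.9 against 69.6 and 67.8 CPM at 24 h. All 24 h libraries lay above all 6 h libraries, and the 12 h Dox libraries were already close to the 24 h values. The Dox effect at 12 h was 0.30 ± 0.07 (SE, adjusted p = 0.0062), lost without untreated replicate 2 and without Dox replicate 1, with a range of 0.24 to 0.35. At 6 and 24 h both Dox libraries were slightly lower, at -0.16 and -0.08, neither called. P4ha1, the other catalytic subunit, was not called (0.08 at 12 h), and neither was Ero1l, whose product acts in the formation of disulphide bonds (0.23 ± 0.07 (SE, adjusted p = 0.059) at 12 h).

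Among genes tied to mitochondria, Ak4 showed the largest Dox effect of any tested member at 12 h. Ak4 (ENSMUSG00000028527, chromosome 4, 101419277 to 101466995, plus strand) encodes an adenylate kinase of the mitochondrial matrix. Ak4 read 12.0 and 13.1 CPM in untreated and 8.59 and 6.24 CPM in Dox libraries at 6 h, 14.0 and 6.66 against 18.7 and 14.9 CPM at 12 h, and 10.8 and 9.71 against 10.4 and 8.40 CPM at 24 h. With Dox both libraries were lower at 6 h and higher at 12 h, without overlap, and the groups overlapped at 24 h. The fold changes were -0.79 ± 0.21 (SE, adjusted p = 0.055), 0.83 ± 0.20 (SE, adjusted p = 0.0071) and -0.08 ± 0.21 (SE, adjusted p = 0.9). At 12 h the range over left-out libraries was 0.28 to 1.36, and the call was lost without untreated replicate 2 and without Dox replicate 1. DESeq2 (adjusted p = 0.27) and limma-trend (adjusted p = 0.2) did not call it. Bnip3, which marks mitochondria for autophagy, read 20.3 and 19.5 CPM untreated and 14.3 and 11.3 CPM with Dox at 6 h and 19.7 and 20.8 CPM without Dox at 24 h, beside the values given with the single libraries. Its fold changes of -0.67 ± 0.27 (SE, adjusted p = 0.34), 0.74 ± 0.24 (SE, adjusted p = 0.065) and -0.18 ± 0.26 (SE, adjusted p = 0.76) were not called. Gm16439, a gene model that shares 197 of the Bnip3 windows, read 12.3 and 4.30 CPM in the untreated and 12.8 and 11.4 CPM in the Dox 12 h libraries, with the same untreated replicate low. Higd1a, a mitochondrial protein gene induced by hypoxia, stayed between 12.2 and 14.8 CPM in all libraries and was not called.

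Ndrg1, which is induced by hypoxia and by differentiation, fell after 24 h of Dox with the lowest adjusted p of the members at that hour. It lies on chromosome 15, 66929321 to 66969640 (minus strand, ENSMUSG00000005125). Ndrg1 read 28.3 and 31.1 CPM in untreated and 30.1 and 27.0 CPM in Dox libraries at 6 h, 32.4 and 31.6 against 33.0 and 35.03 CPM at 12 h, and 40.5 and 39.4 against 29.8 and 26.6 CPM at 24 h. The 24 h Dox libraries were well below the untreated ones and at the level of 6 h, whereas untreated cells had their highest values at 24 h. The fold change was -0.49 ± 0.09 (SE, adjusted p = 0.00014) and ran from -0.57 to -0.41 without 1 library, called each time. Of its windows 12.1% are shared, with genes that summed to 0.104 CPM. Ddit4 read 57.7 and 58.8 CPM in untreated and 57.9 and 53.3 CPM in Dox libraries at 6 h, 92.7 and 80.1 against 95.6 and 93.5 CPM at 12 h, and 109.6 and 106 against 104 and 106 CPM at 24 h. Ddit4, an inhibitor of mTOR signalling that many stresses induce, rose from 6 to 12 h in both arms. Its groups overlapped at 6 h and lay narrowly apart later (-0.07, 0.14 and -0.04, none called). The peptide hormone gene Adm and Ankrd37 were low, with 2.42 to 5.06 CPM and 0.790 to 4.06 CPM, and were not called with Dox. Car9, an extracellular carbonic anhydrase and a common marker of hypoxia, ranged from 0 to 0.335 CPM.

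Both transcriptional repressors among the members rose in at least 1 step of time, and Mxi1 also rose with Dox. Mxi1 (ENSMUSG00000025025, chromosome 19, 53310506 to 53375810, plus strand) antagonises MYC at E-boxes. Mxi1 read 23.0 and 19.6 CPM in untreated and 28.5 and 26.0 CPM in Dox libraries at 6 h, 26.1 and 23.3 against 37.6 and 31.1 CPM at 12 h, and 34.0 and 30.3 against 33.1 and 31.7 CPM at 24 h. Both Dox libraries were higher at 6 and at 12 h, and at 24 h the groups overlapped. Fold changes were 0.32 ± 0.10 (SE, adjusted p = 0.16), 0.51 ± 0.10 (SE, adjusted p = 0.0013) and 0.03 ± 0.10 (SE, adjusted p = 0.92), and the 12 h call was lost without untreated replicate 2 and without Dox replicate 1 (range 0.36 to 0.62). Bhlhe40 read 58.5 and 67.8 CPM in untreated and 52.8 and 52.8 CPM in Dox libraries at 6 h, 72.6 and 68.0 against 71.4 and 66.6 CPM at 12 h, and 103 and 96.7 against 87.8 and 85.6 CPM at 24 h. Bhlhe40, a repressor that links hypoxia and the circadian clock, was lower in both Dox libraries at 6 and 24 h, with -0.25 ± 0.07 (SE, adjusted p = 0.095) and -0.20 ± 0.07 (SE, adjusted p = 0.058), neither called.

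In untreated cells few members changed from 6 to 12 h: 3 of 34 (8.82%) were called, against 7.46% of all genes (4.39% higher and 3.07% lower). Ddit4 rose by 0.56 ± 0.07 (SE, adjusted p = 2.1e-06), Slc2a3 changed by -0.18 ± 0.05 (SE, adjusted p = 0.029) and Ldha by -0.20 ± 0.06 (SE, adjusted p = 0.046). From 12 to 24 h 7 members were called (20.6% against 22.4% of all genes, 12.2% higher and 10.2% lower), and 6 of them rose. They were Bhlhe40 (0.51 ± 0.07 (SE, adjusted p = 2.3e-06)), P4ha2 (0.45 ± 0.07 (SE, adjusted p = 1.5e-05)), Ddit4 (0.33), Mxi1 (0.38), Ndrg1 (0.32) and Pfkfb3 (0.24), while Slc2a3 fell further (-0.27 ± 0.05 (SE, adjusted p = 0.00019)). The median member moved by -0.04 in the first step and 0.09 in the second, and the median of all genes by 0.00 and 0.01. The first count ran from 1 to 6 and the second from 4 to 11 when 1 library was left out, and each was highest without untreated 12 h replicate 1.

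With Dox, 17 members were called from 6 to 12 h and 15 from 12 to 24 h, where untreated cells had 3 and 7. DESeq2 gave 11 and 8 with Dox against 2 and 7 untreated, and limma-trend 8 and 5 against 1 and 5, so the second step had similar counts in both arms with these tools. The difference between counts was not tested, and for single genes it is the change of the Dox effect given further on. From 6 to 12 h, 17 of 34 (50.0%) were called and all rose, against 18.9% of all genes called, 8.84% higher and 10.1% lower, and the median member moved by 0.25. The lowest adjusted p belonged to Ddit4 (0.77 ± 0.07 (SE, adjusted p = 2.5e-09)), P4ha2 (0.55 ± 0.07 (SE, adjusted p = 2e-06)), Pfkl (0.69 ± 0.10 (SE, adjusted p = 2.4e-05)), Ak4 (1.24 ± 0.20 (SE, adjusted p = 6.5e-05)), Bhlhe40 (0.39 ± 0.07 (SE, adjusted p = 0.00024)) and Slc16a3 (1.06 ± 0.19 (SE, adjusted p = 0.00028)). The others were Bnip3 (1.38), Pdk1 (0.40), the oxygen-sensing and demethylase genes Egln1 (0.22), Egln3 (0.45) and Kdm3a (0.27), Mxi1 (0.36), Ndrg1 (0.25), and in glycolysis Hk1 (0.25), Hk2 (0.26), Tpi1 (0.29) and Aldoc (0.79). None of the 4 lower glycolysis genes was among them. Of the 17, Ddit4, Bhlhe40, P4ha2, Mxi1 and Ndrg1 also rose in untreated cells at 1 step or the other.

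From 12 to 24 h with Dox, 15 of 34 members (44.1%) were called, 14 of them lower, against 13.8% of all genes called, 7.84% higher and 5.98% lower. Egln3 changed by -0.54 ± 0.10 (SE, adjusted p = 0.00051), Slc2a3 by -0.26 ± 0.05 (SE, adjusted p = 0.00056), Ldha by -0.29 ± 0.06 (SE, adjusted p = 0.0014), Pfkl by -0.44 ± 0.10 (SE, adjusted p = 0.003) and Ak4 by -0.83 ± 0.19 (SE, adjusted p = 0.0034), while Bhlhe40 alone rose (0.33 ± 0.07 (SE, adjusted p = 0.0012)). The other 9 that fell were Slc2a1, Slc16a3, Pdk1, Egln1, Kdm3a, Ero1l, Bnip3, Ndrg1 and Ankrd37, with fold changes from -1.04 (Ankrd37) to -0.18 (Slc2a1). The 6 tested mitochondrially encoded genes, out of 9 listed, moved the opposite way with Dox: all 6 fell from 6 to 12 h (median -0.36) and all 6 rose from 12 to 24 h (median 0.37). Their summed level was 18738 and 18656 CPM at 6 h, 14828 and 14123 CPM at 12 h and 20498 and 17161 CPM at 24 h with Dox, and 18924 and 15789, 16194 and 15399, and 16522 and 16354 CPM in untreated cells, where 1 of 6 was called, lower, in the first step and none in the second. Listed at 0 in all libraries were mt-Co2, mt-Co3 and mt-Atp6. The part of this movement in the members' steps was not tested. Both steps use the same Dox 12 h libraries, so a high value there adds to a rise in the first and to a fall in the second. Without Dox 12 h replicate 1, 8 members were called in the first step and 3 in the second. Without Dox 6 h replicate 2 the first count was also 8, and without Dox 24 h replicate 2 the second was 4.

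Whether the Dox effect itself differed between hours was tested as a difference of fold changes. From 6 to 12 h the effect rose for 5 of 34 members (14.7%), against 0.417% of all genes called (0.195% higher and 0.222% lower): Ak4 by 1.63 ± 0.29 (SE, adjusted p = 0.0055), Slc16a3 by 1.37 ± 0.27 (SE, adjusted p = 0.015), Pfkl by 0.77 ± 0.15 (SE, adjusted p = 0.012), Pdk1 by 0.54 ± 0.12 (SE, adjusted p = 0.032) and P4ha2 by 0.46 ± 0.10 (SE, adjusted p = 0.032). The fitted difference was above 0 for 33 of 34 members, with a median of 0.25, and the median of all genes was -0.01. From 12 to 24 h it fell for 4 members (11.8%, against 1.21% of all genes, 0.189% higher and 1.02% lower): Slc16a3 by -1.24 ± 0.27 (SE, adjusted p = 0.012), Pfkl by -0.69 ± 0.15 (SE, adjusted p = 0.0094), Ndrg1 by -0.57 ± 0.12 (SE, adjusted p = 0.0095) and P4ha2 by -0.38 ± 0.10 (SE, adjusted p = 0.046). There 5 of 34 fitted differences were above 0 and the median was -0.29. Both differences rest on the same 4 libraries of 12 h. DESeq2 called 2 and 1 members, and limma-trend none in either, while 19 and 18 had an unadjusted p under 0.05 in edgeR's test. The share of all genes with such a p was not taken. The first count was 0 without Dox 6 h replicate 2, without untreated 12 h replicate 2 or without Dox 12 h replicate 1, and 12 without untreated 12 h replicate 1. The second was 0 without untreated 12 h replicate 2 or without untreated 24 h replicate 1, 1 without Dox 12 h replicate 1 or Dox 24 h replicate 2, and 8 without untreated 12 h replicate 1.

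Genes of the HIF pathway itself were also compared with and without Dox. Of 18 tested, none was called at 6 h by edgeR's test or by DESeq2 (1 had an unadjusted p under 0.05), 2 were lower at 12 h (Cul2, -0.21, and Cited2, -0.17) and at 24 h 1 was higher and 2 were lower. These are 11.1% at 12 h and 16.7% at 24 h, against 6.76% and 11.0% of all genes. With 18 genes tested, such shares are not read as a result about the pathway. DESeq2 called 1 at 12 h and 3 at 24 h, and limma-trend on RPKM called none at any hour. Hif1a, the regulated subunit, read 370.0 and 393 CPM untreated and 402 and 384 CPM with Dox at 12 h, with fold changes of -0.01, 0.04 and 0.03. Epas1, the alpha subunit typical of endothelium, read 136 and 128 CPM untreated and 149 and 178 CPM with Dox at 24 h and rose by 0.31 ± 0.07 (SE, adjusted p = 0.0021). Hif3a and Cited2, whose product competes with HIF for its coactivators, were lower at 24 h (-0.40 ± 0.10 (SE, adjusted p = 0.0052) and -0.17 ± 0.05 (SE, adjusted p = 0.025)). Arnt and Vhl were not called, with 0.03 and -0.07 at 12 h. Leaving out each library in turn gave 0.19 to 0.45 for Epas1 and -0.67 to -0.22 for Hif3a, and both calls were lost without untreated 24 h replicate 2 and without Dox 24 h replicate 2. The Cul2 and Cited2 calls were lost without any 1 library of their hour. HIF activity is set largely by protein stability, which RNA counts do not measure.

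Other HIF targets were called in both directions. Of 27 tested, 1 was higher and 1 lower at 6 h, 4 and 1 at 12 h, and 3 and 3 at 24 h, which is 7.41%, 18.5% and 22.2% against 1.54%, 6.76% and 11.0% of all genes. Vegfa, the growth factor that drives vessel growth, read 138 and 143 CPM untreated and 163 and 166 CPM with Dox at 6 h, 120.3 and 116 against 169.8 and 166 CPM at 12 h and 108 and 98.2 against 158 and 169 CPM at 24 h. The Dox libraries were higher at each hour without overlap, by 0.23 ± 0.06 (SE, adjusted p = 0.029), 0.51 ± 0.06 (SE, adjusted p = 3.3e-07) and 0.67 ± 0.06 (SE, adjusted p = 5.4e-10). The 6 h call was lost without any 1 library of that hour, and those at 12 and 24 h held without each. The change of its Dox effect from 12 to 24 h was 0.16 ± 0.08 (SE, adjusted p = 0.49). Stc2, Kdm4b and Vldlr were higher at 12 h (0.42, 0.30 and 0.40). Tfrc, the transferrin receptor gene, was lower at all 3 hours (-0.25, -0.25 and -0.45), and at 24 h so were the glycogen phosphorylase gene Pygl (-1.32 ± 0.24 (SE, adjusted p = 0.00024)) and Loxl2 (-0.26 ± 0.05 (SE, adjusted p = 0.001)), while Wsb1 and Stc2 were higher (0.27 and 0.43).

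Isoenzymes and genes of neighbouring pathways were called in part, and 24 h counts are to be read against 11.0% of all genes. Of 18 other glycolysis genes tested, none was called at 6 h by edgeR or DESeq2 (2 had an unadjusted p under 0.05). Pkm, the pyruvate kinase gene, read 524 and 479 CPM untreated and 531 and 510.4 CPM with Dox at 12 h and was not called at any hour (-0.12, 0.06 and 0.03). Slc16a1, the importer and exporter of lactate MCT1, rose by 0.21 ± 0.06 (SE, adjusted p = 0.0091) at 24 h, the hour at which Slc16a3 was lower. The difference between these 2 effects was not tested. Of 12 genes for the entry of pyruvate into mitochondria only Pdk3 was called, at 24 h (-0.32 ± 0.08 (SE, adjusted p = 0.004)). Of 7 pentose phosphate genes Rpia (-0.71 ± 0.15 (SE, adjusted p = 0.00095)) and Pgd (-0.20 ± 0.06 (SE, adjusted p = 0.017)) were lower at 24 h, and of 4 gluconeogenesis genes Pck2 (-0.35 ± 0.10 (SE, adjusted p = 0.019)).

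Levels of other cells' markers ran beside these results. At 24 h the summed level of 12 pan-blood markers was 353.9 and 365 CPM in untreated against 202 and 194 CPM in Dox libraries, and that of 10 myeloid markers 156 and 164 against 59.6 and 54.4 CPM. At 12 h the erythroid sum was 1640 and 1009 CPM without and 1731 and 1603 CPM with Dox. The untreated 12 h replicate 2 was low in it and in Ak4, Bnip3 and Slc16a3. Untreated 6 h replicate 2 had a sum of 999 CPM, yet these genes read 13.1, 19.5 and 86.7 CPM there. Sums of 969 and 1044 CPM in the Dox 6 h pair and 1057 CPM in Dox 24 h replicate 2 went with levels of these genes below the untreated ones. All markers on these 3 lists were detected. Their part in the Dox effects on the members was not tested.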

How the data were processed

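RNA was measured in 12 libraries, 2 in each of 6 groups taken from the sample titles. The members and the gene lists were chosen with earlier results of these data known. Per the labels' protocols, a strand-specific kit turned 200 ng of total RNA into libraries with 14 PCR cycles, read singly over 75 bases (NextSeq500). Per the submitters' processing notes the build was GRCm38 and the tools were edgeR 3.8.5 in R 3.1.0, SAMtools 0.1.19, Bowtie2 2.21 and bcl2fastq 2.16.0.10. How reads were assigned to genes, with which strand setting and annotation, is not given in the sources used here, so overlapping genes, antisense partners and near-identical copies are uncertain. Deposited by the authors were raw counts of reads, whole numbers with no normalization, and RPKM values (counts scaled by gene length and library size) for the same 41128 genes. The factor between both differed from the effective library size by at most 1.14%. No value column was left out.

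Tests on the counts used R 4.3.3 with edgeR 4.0.16: filterByExpr by group (15347 genes kept), TMM scaling and a quasi-likelihood fit of 1 mean per group over all 12 libraries, with 6 residual degrees of freedom. Benjamini-Hochberg adjustment ran over every tested gene, and calls needed an adjusted p under 0.05. Tested were 9 comparisons: Dox at each hour, each step of time with and without Dox, and each change of the Dox effect. SE is the log2 fold change over the square root of F. The biological coefficient of variation was 4.71%. Every library's value is given for members called in a Dox comparison or a change of the Dox effect. The same holds for up to 6 per step of time by adjusted p. The other members are given by a range or mean of their level, or only by fold changes. Up to 4 called genes per pathway list and comparison are named, and Hif1a, Epas1, Arnt, Vhl, Pkm and Vegfa always. Other HIF targets beyond 4 at 12 and 24 h, and Hif1an, Loxl2 and Slc16a1 over time, were named after their values were seen. The result of 1 gene on the list of other glycolysis genes is not reported here. The test was checked on simulated counts, with independent libraries and the same spread for all genes. That setting does not cover single libraries that shift these genes together. Alternatives were RLE scaling, no filter, DESeq2 1.42.0, limma-trend (limma 3.58.1) on log2(RPKM + 0.5) and log2(RPKM + 0.1), a replicate block, each library left out, and, chosen after seeing the data, a block of deep against shallow libraries. Shared windows were counted in GENCODE M21 transcripts, and 2 list genes were matched through its names of their gene IDs.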

Additional observations from a re-analysis of the deposited data

Results flagged for a closer look

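The difference between the Dox effects at 2 hours passed the test for 9 member results and for 3 results of other HIF targets. From 6 to 12 h the effect rose for Ak4 by 1.63 ± 0.29 (SE, adjusted p = 0.0055) and for Slc16a3 by 1.37 ± 0.27 (SE, adjusted p = 0.015). It rose for Pfkl by 0.77 ± 0.15 (SE, adjusted p = 0.012), for Pdk1 by 0.54 ± 0.12 (SE, adjusted p = 0.032) and for P4ha2 by 0.46 ± 0.10 (SE, adjusted p = 0.032). Stc2, a secreted glycoprotein gene, had a change of 0.58 ± 0.14 (SE, adjusted p = 0.048), with 24.2 and 22.5 CPM without and 21.6 and 20.5 CPM with Dox at 6 h and 20.9 and 18.3 against 25.9 and 25.8 CPM at 12 h. The calls were lost in 6 of 15 alternative fits for Ak4, 7 of 15 for Slc16a3, Pfkl and Pdk1 each, 6 of 15 for P4ha2 and 11 of 15 for Stc2.

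From 12 to 24 h the effect changed for Slc16a3 by -1.24 ± 0.27 (SE, adjusted p = 0.012), for Pfkl by -0.69 ± 0.15 (SE, adjusted p = 0.0094), for Ndrg1 by -0.57 ± 0.12 (SE, adjusted p = 0.0095) and for P4ha2 by -0.38 ± 0.10 (SE, adjusted p = 0.046). The calls were lost in 7 of 15 alternative fits for Slc16a3 and Pfkl each, 5 of 15 for Ndrg1 and 10 of 15 for P4ha2. Loxl2, a collagen cross-linking enzyme gene, had -0.31 ± 0.08 (SE, adjusted p = 0.036), with 360.4 and 383 CPM without and 313 and 306 CPM with Dox at 24 h. Vldlr, a lipoprotein receptor gene, had -0.66 ± 0.17 (SE, adjusted p = 0.042), with 16.4 and 16.1 CPM without and 15.1 and 11.3 CPM with Dox at 24 h. Both were lost in 9 of 15 alternative fits.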

How the results depend on the processing

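Of the 306 member results, 64 were called, and in 740 alternative fits of these 234 were no longer called. In 169 fits a member changed sign where neither fit called it. 1 result was called with the opposite sign: Bnip3 in untreated cells from 12 to 24 h, not called at 0.06, was -0.61 without NoDox 12 h replicate 2 (adjusted p = 0.049) and 0.82 without NoDox 12 h replicate 1 (adjusted p = 0.0046). RLE scaling left all 9 counts of called members as they were. Without the filter the counts were 5 for Dox at 6 h, 13 for the change of the Dox effect from 6 to 12 h and 9 for that from 12 to 24 h. With DESeq2 they were 0 for Dox at 6 h, 11 and 8 for the steps from 6 to 12 h and from 12 to 24 h with Dox, and 2 and 1 for the changes of the Dox effect. Limma-trend on RPKM gave, with either pseudocount, 0, 2 and 1 for Dox at 6, 12 and 24 h, 1 for untreated cells from 6 to 12 h, 8 and 5 for the steps with Dox, and 0 and 0 for the changes of the Dox effect. The cause of these shifts was not tested. With 1 library left out, the group then held a lone library assumed to vary like the others, and the counts ran from 0 to 2, 1 to 13 and 2 to 8 for Dox at 6, 12 and 24 h. For untreated cells they ran from 1 to 6 and 4 to 11, with Dox from 8 to 19 and 3 to 19, and for the changes of the Dox effect from 0 to 12 and 0 to 8. Deviations from group means in same-numbered libraries had correlations between groups, over 10241 genes, from -0.268 to 0.208. Many of these pairs set a deep library against a shallow one, so whether the numbers pair the samples cannot be decided from them. With the replicate block the counts were 4, 9 and 6 for Dox at 6, 12 and 24 h, 3 and 9 for untreated cells, 17 and 16 with Dox, and 6 and 7 for the changes. A block of deep against shallow libraries, which crosses the replicate numbers between the arms of each hour, gave 1, 7, 4, 2, 7, 17, 14, 5 and 4 in the same order. Car9, with at most 12 counts in a library, was left out by the filter on low counts, so no difference in it was detectable at this depth.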

Other observations

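With Dox from 6 to 12 h, 11 of 18 HIF pathway genes were called, 6 higher and 5 lower, against 18.9% of all genes. The lowest adjusted p belonged to Cul2 (-0.36), Tceb1 (-0.34) and Hsp90aa1 (-0.19), which fell, and to the coactivator gene Ep300 (0.19), which rose. In untreated cells Hif1an, which encodes the asparagine hydroxylase that blocks HIF from its coactivators, rose in both steps, by 0.25 ± 0.06 (SE, adjusted p = 0.0081) and 0.28 ± 0.06 (SE, adjusted p = 0.00059). Vegfa changed in untreated cells by -0.25 ± 0.06 (SE, adjusted p = 0.0051) and -0.20 ± 0.06 (SE, adjusted p = 0.012), and with Dox its changes of 0.03 ± 0.06 and -0.04 ± 0.06 (SE) were not called. The change of its Dox effect was called in neither step, so a difference between the arms in these steps was not shown. Of the other HIF targets, Loxl2 was higher at each step in both arms, with 0.25 and 0.57 untreated and 0.43 and 0.26 with Dox. Slc16a1 was lower at each step, with -0.36 and -0.34 untreated and -0.21 and -0.22 with Dox.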
